A study of Mus musculus with 14 samples.

Results

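The genes described here are 10 members of the BCL2 family, taken by symbol from the 32285 genes counted in single cells of white nodules from 7 mice. They are the survival genes Bcl2, Bcl2l1 (BCL-XL), Mcl1, Bcl2a1b and Bcl2a1d (2 copies of A1), the BH3-only death genes Bcl2l11 (BIM), Bbc3 (PUMA) and Pmaip1 (NOXA), and the pore-forming death genes Bax and Bak1. All 10 were detected and passed the filter on low counts in each of the 6 comparisons below.

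Proteins of this family decide whether the outer membrane of the mitochondrion stays intact. BAX and BAK open it and release cytochrome c, the survival proteins hold BAX, BAK and the BH3-only proteins in check, and the BH3-only proteins relay stress or loss of growth signals. In lymphocytes, naive T cells and memory B cells are known to lean on BCL2, germinal centre B cells on MCL1, and activated lymphocytes and myeloid cells to express A1. MCL1, NOXA and BIM are also controlled strongly after transcription, so RNA counts report only 1 layer of the family.

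The nodules came from cKO mice (Eif3e fl/fl Cγ1-Cre, with a Rosa26-YFP reporter), in which Cre is driven by transcription of the immunoglobulin γ1 segment and removes floxed Eif3e, a subunit gene of the translation factor eIF3, in activated B cells. No mouse without the deletion was analysed here, so every comparison was between cells of the same nodule or between mice. A V(D)J library, which records the rearranged antigen receptor of each cell, was made for the B cell receptor (BCR) of mice 27 (liver, 12 months), 29 (lung, 12 months), 31 (spleen, 13 months), 33 (thymus, 16 months) and 34 (lung and thymus, 9 months), and for that of T cells (TCR) of mice 30 (liver, 14 months) and 32 (spleen, 12 months). The nodule of mouse 27 was a secondary tumor grown in a Rag2-/- recipient, which makes no mature B or T cells of its own, and cells of donor and host origin could not be separated. Each nodule was a single sample, and the mouse was the replicate.

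Of 77442 deposited cells, 75503 passed the filters. Clone cells were those with the dominant receptor of their nodule: 8579 B clone cells (323 to 3974 a mouse) and 6975 T clone cells (2107 and 4868). The references were non-clonal lymphocytes of the same nodules: 10998 T-like cells in the BCR mice (576 to 5131 a mouse, with no TCR recorded), 897 T-like cells of the TCR mice whose called receptor was not that of the clone (394 and 503), and 125 B-like cells of 4 BCR mice with a non-clonal BCR (24 to 41 a mouse). Median depth was 9367 to 13763 UMIs a cell in the B clones, 1992 and 3805 in the T clones, 1190 to 3448 in the T-like cells and 2043 to 9447 in the non-clonal B-like cells. The cell barcodes of the libraries overlapped, with 3129 of 72288 distinct barcodes seen in 2 or more libraries, and cells were kept apart by library. UMIs, which count single RNA molecules, were summed over the cells of a group, and levels are given as CPM, the sum of a gene scaled to a common total. Intervals and floors cover counting error only.

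The labels of the cell groups were checked against 6 B cell and 6 T cell markers. The summed B markers reached 1595 to 3388 CPM in the B clones and 7.93 to 48.1 in the T clones, and the summed T markers 1986 to 3409 in the T clones and 8.85 to 56.3 in the B clones. In the BCR mice, B markers in the T-like reference stood at 2.93% to 7.96% of their level in the clone, and T markers in the clone at 0.370% to 2.22% of their level in the T-like cells. Eif3e itself was counted in every clone, at 169 to 243 CPM in the B clones and 142 and 146 CPM in the T clones, against 116 to 183 CPM in the T-like cells. Its counts are of the whole gene and do not show whether the floxed part was present. The paper reported that B and CD4+ T cells of its tumors lacked YFP and had normal eIF3e protein levels. That was not tested here.

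The clones are shown by the receptor sequence that defined them, the commonest heavy-chain or beta-chain CDR3 of each nodule (5′ to 3′). Capitals mark the codons of the conserved cysteine and of the tryptophan or phenylalanine that bound the CDR3.
Mouse 27, IGHV1-75 and IGHJ1: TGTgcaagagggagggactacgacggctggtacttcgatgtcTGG
Mouse 29, IGHV1-85 and IGHJ3: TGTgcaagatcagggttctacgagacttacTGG
Mouse 31, IGHV1-18 and IGHJ4: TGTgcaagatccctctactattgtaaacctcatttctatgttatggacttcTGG
Mouse 33, IGHV9-3 and IGHJ3: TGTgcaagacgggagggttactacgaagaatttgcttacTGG
Mouse 34, IGHV9-1 and IGHJ2: TGTactagagaggatgactatTGG
Mouse 30, TRBV1 and TRBJ2-1: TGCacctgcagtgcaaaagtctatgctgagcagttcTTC
Mouse 32, TRBV26 and TRBJ2-5: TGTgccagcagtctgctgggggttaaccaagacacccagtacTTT
These rearrangements were carried by 63.7% to 94.4% of the cells with a called heavy or beta chain, and no V gene or CDR3 of this kind was shared between nodules.

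**Figure D1:**
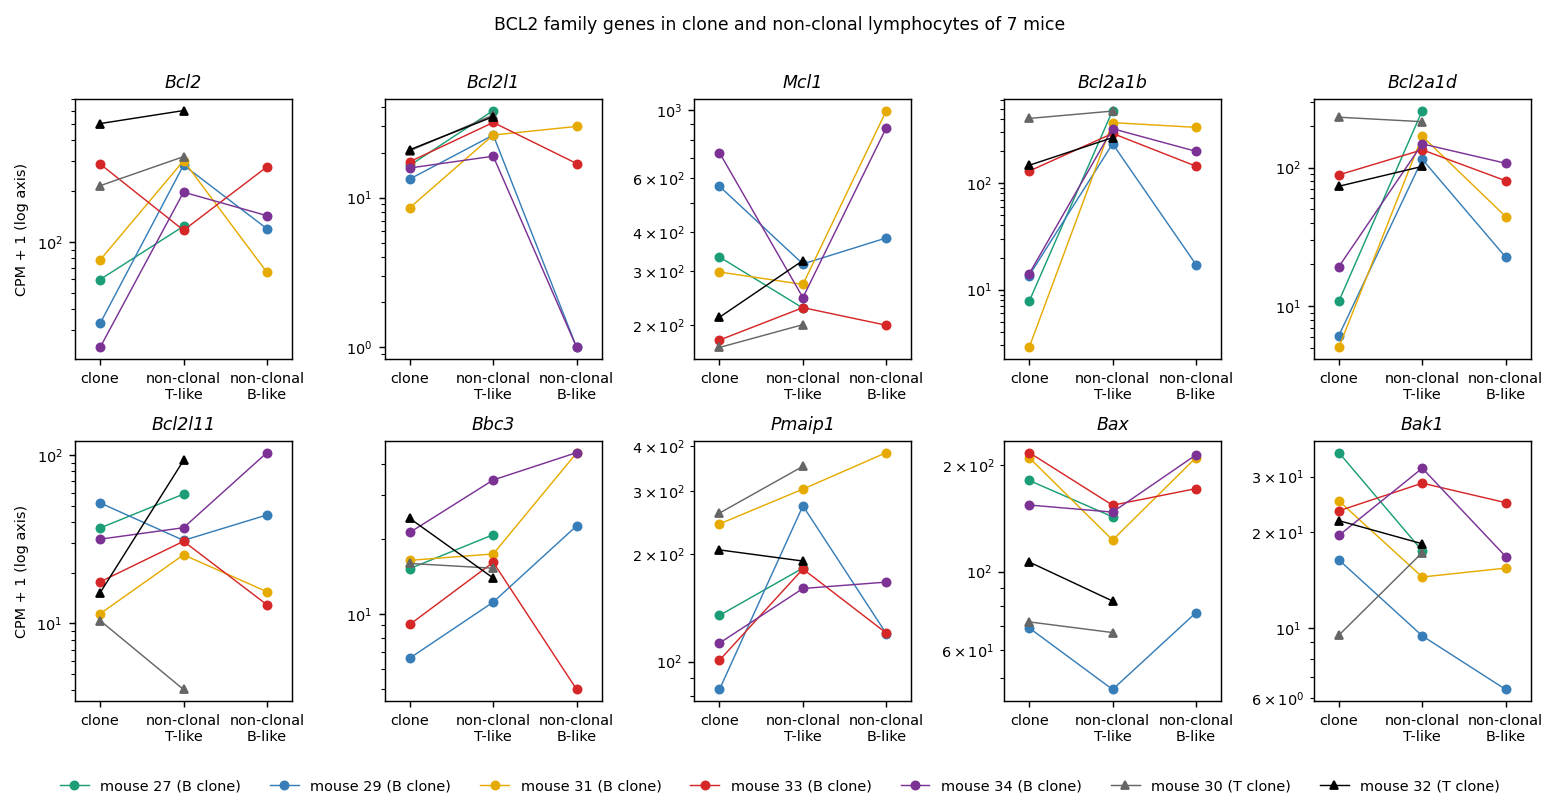
Level of each of the 10 genes (CPM + 1, log axis) in clone cells, non-clonal T-like cells and non-clonal B-like cells, with lines joining groups of the same mouse (circles, mice with a B clone; triangles, mice with a T clone). Bcl2a1b and Bcl2a1d were lower in the B clone than in the T-like cells of all 5 BCR mice, least so in mouse 33, and Bcl2 in mouse 33 went the other way from the other 4.

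Against the non-clonal T-like cells of the same nodule, the B clones had far less of the A1 copies Bcl2a1b and Bcl2a1d and 0.504 times the Bcl2l1, while Bax and Mcl1 were fitted above the T-like cells without passing the test. edgeR called 3 of the 10 genes, all lower, where 28.5% of the 12457 genes tested were called, 15.5% lower and 13.0% higher. At an unadjusted p under 0.05 there were 7 of 10, against 42.1% of all genes. The median log2 fold change of the 10 genes was -0.64, against 0.05 over all genes tested.

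Bcl2a1b lies at chr9:89199273-89207838 and Bcl2a1d at chr9:88723288-88731850 (GRCm38), and both encode A1, a survival protein that binds BIM and other BH3-only proteins. The windows from 250 bases before to 50 bases after their RefSeq start sites (GRCm38.p6) are printed to show how alike the copies are. Capitals mark the bases that differ or have no partner within the aligned stretch, and the unaligned ends are in lower case.
Bcl2a1b, chr9:89199023-89199322, plus strand: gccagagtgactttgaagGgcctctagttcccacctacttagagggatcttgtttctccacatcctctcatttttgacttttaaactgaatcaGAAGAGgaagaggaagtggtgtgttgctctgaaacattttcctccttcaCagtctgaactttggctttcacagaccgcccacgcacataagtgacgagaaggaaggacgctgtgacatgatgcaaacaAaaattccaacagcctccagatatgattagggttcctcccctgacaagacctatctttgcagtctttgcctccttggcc
Bcl2a1d, chr9:88731801-88732100, minus strand: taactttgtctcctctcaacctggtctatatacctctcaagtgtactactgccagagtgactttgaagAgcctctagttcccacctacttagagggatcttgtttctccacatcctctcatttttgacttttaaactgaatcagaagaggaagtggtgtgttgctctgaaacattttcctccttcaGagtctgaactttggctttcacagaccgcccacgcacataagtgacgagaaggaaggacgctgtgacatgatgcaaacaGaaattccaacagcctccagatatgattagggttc
The windows matched at 247 of 250 paired bases (98.8%), with 3 mismatches and 6 inserted bases in Bcl2a1b. How the counting split reads between such copies was not given in the sources used here, so the level of each single copy is uncertain, and the sum of Bcl2a1a, Bcl2a1b and Bcl2a1d was tested as well.

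Bcl2a1b stood at 6.77, 12.6, 1.87, 128 and 13.1 CPM in the clones of mice 27, 29, 31, 33 and 34. In the T-like cells of the same mice it stood at 478, 233, 368, 291 and 322 CPM. The groups did not overlap, and the clone of mouse 33 was the one that came nearest to the T-like cells. In the edgeR fit Bcl2a1b was lower in the B clone by a log2 fold change of -4.82 ± 1.00 (SE, adjusted p = 0.0130, lower in 5 of 5 mice). Bcl2a1d was at 9.85, 5.13, 4.04, 87.7 and 18.3 CPM in the clones and at 257, 114, 167, 134 and 147 CPM in the T-like cells, again without overlap (log2 fold change -3.69 ± 0.77, edgeR adjusted p = 0.0131). The sum of the 3 copies gave -4.27 ± 0.85 (edgeR adjusted p = 0.0110), with 6.34 to 222 CPM in the clones against 350 to 737 CPM in the T-like cells. In mice 27, 29, 31 and 34, Bcl2a1b in the clone was 0.510% to 5.40% of its level in the T-like cells, beside T markers at 0.370% to 2.22%. In mouse 33 it was 44.1%, with T markers at 1.70%. The part of free T cell RNA in the low values of the other 4 clones was not tested.

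Shares of cells with a UMI were compared after each cell was thinned to 1000 UMIs, which left 323 to 3974 clone cells and 409 to 3360 T-like cells a mouse. Bcl2a1b was then seen in 0.176% to 1.55% of the clone cells of mice 27, 29, 31 and 34, in 11.2% of those of mouse 33, and in 17.6% to 35.2% of the T-like cells. Without thinning the shares were 1.36% to 9.82% in those 4 clones, 51.3% in mouse 33 and 20.2% to 53.8% in the T-like cells, at clone depths of 9367 to 13763 UMIs against 1190 to 3448 UMIs.

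Bcl2l1 (chr2:152758732-152833803), whose product BCL-XL guards mature and activated cells, stood at 15.4, 12.3, 7.56, 16.4 and 14.8 CPM in the clones of mice 27, 29, 31, 33 and 34. In the T-like cells it stood at 37.1, 25.2, 25.2, 30.7 and 17.9 CPM. The clone was lower in every mouse, and the highest clone (16.4 CPM) lay just below the lowest T-like value (17.9 CPM). The fitted log2 fold change was -0.99 ± 0.26 (edgeR adjusted p = 0.0282). This call was lost when mouse 27, 29, 31 or 33 was left out (edgeR adjusted p of up to 0.0876) and without the filter on low counts (adjusted p = 0.114), and over all alternatives the adjusted p ranged from 0.00395 to 0.114.

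Bcl2 (chr1:106538176-106714290), the founding survival gene of the family, was at 58.8, 31.8, 77.1, 289 and 22.6 CPM in the clones of mice 27, 29, 31, 33 and 34, and at 123, 285, 302, 116 and 196 CPM in their T-like cells. It was lower in 4 of 5 clones, to between 11.2% and 47.9% of the T-like level, and higher in mouse 33, where it reached 249% of that level. Over the 5 mice the log2 fold change of -1.67 ± 0.70 did not pass (edgeR adjusted p = 0.113). Without mouse 33 it was -2.32 and passed (edgeR adjusted p = 0.0112), as it did with DESeq2 on all 5 mice (adjusted p = 0.0159). The adjusted p ranged from 0.0112 to 0.362 over the alternatives.

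Mcl1 (chr3:95656944-95663179), whose short-lived protein B cells of the germinal centre depend on, was at 332, 564, 296, 178 and 726 CPM in the same 5 clones and at 226, 315, 270.0, 227 and 244 CPM in the T-like cells. It was higher in 4 of 5 clones and lower in mouse 33, and the mean difference of 0.60 ± 0.29 on the log2 scale did not pass (edgeR adjusted p = 0.155, 0.0767 to 0.364 over the alternatives). The spread among B clones was 4.09-fold, against 1.62-fold among the T-like cells of all 7 mice. The non-clonal B-like cells, compared below, also spread widely, at 199 to 996 CPM in 4 mice.

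Among the death genes, Pmaip1 and Bbc3 were lower in all 5 B clones than in the T-like cells and Bax was higher in all 5, and none of these passed the test over all genes. Pmaip1, which antagonizes MCL1 and A1, stood at 134, 82.6, 241, 99.9 and 112 CPM in the clones and at 181, 271, 302, 180.4 and 159 CPM in the T-like cells (log2 fold change -0.71 ± 0.24, edgeR adjusted p = 0.0645). Bbc3, a target of p53, was low in both groups (5.64 to 20.2 CPM and 10.2 to 33.5 CPM, log2 fold change -0.56 ± 0.22, edgeR adjusted p = 0.1002). Bax was at 180.2, 68.2, 209, 216 and 153 CPM in the clones and at 142, 45.3, 122, 153 and 146 CPM in the T-like cells (0.51 ± 0.19, edgeR adjusted p = 0.0850). The groups overlapped for all 3. With DESeq2, Pmaip1 (adjusted p = 0.0272) and Bax (adjusted p = 0.0429) passed as well, and the adjusted p of Pmaip1 ranged from 0.0272 to 0.360 and that of Bax from 0.0429 to 0.387 over the alternatives. Bcl2l11 (10.4 to 51.0 CPM in the clones, 24.6 to 57.7 CPM in the T-like cells) and Bak1 (15.4 to 34.7 CPM and 8.44 to 30.9 CPM) differed in direction between mice, with log2 fold changes of -0.40 ± 0.31 and 0.38 ± 0.32 (edgeR adjusted p = 0.361 and 0.409).

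**Figure D2:**
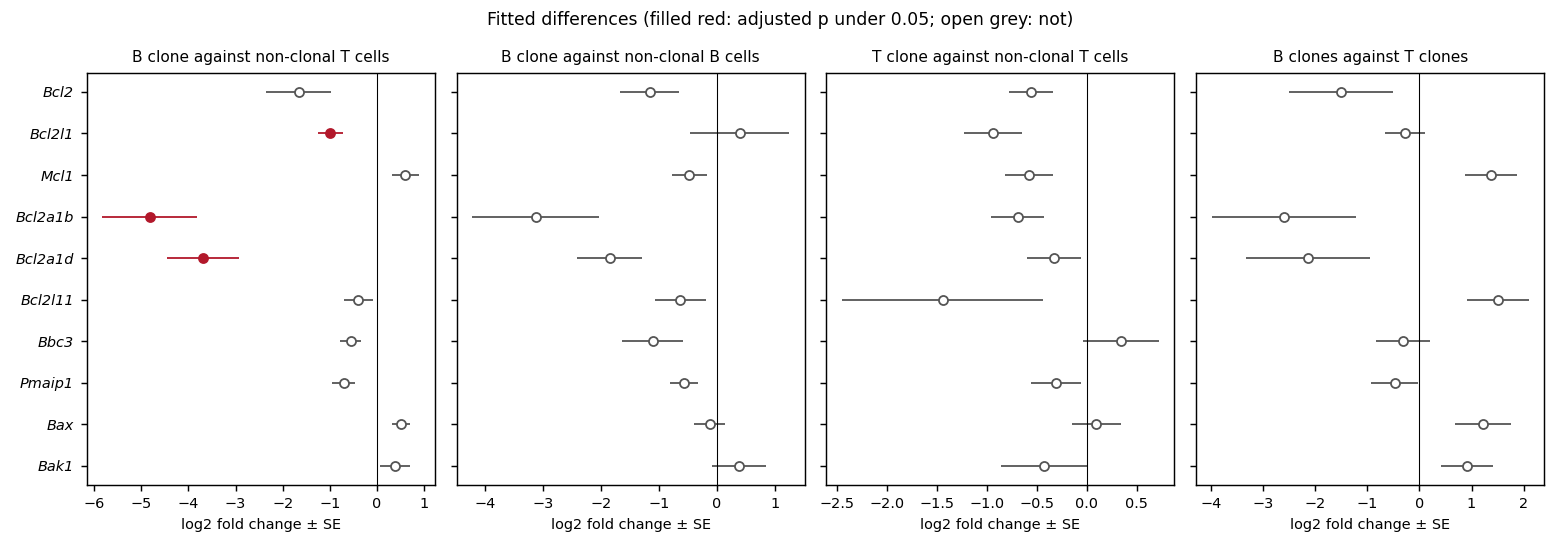
Fitted log2 fold change with its standard error for the 10 genes in 4 comparisons (horizontal axes differ in range), with filled red points for an edgeR adjusted p under 0.05. Only Bcl2l1, Bcl2a1b and Bcl2a1d in the B clones against the T-like cells are filled, and the A1 copies sit farthest to the left wherever B clones are compared.

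Further genes of the death pathway were counted in the same fit, from 4 lists of 43 genes of which 40 were tested: 7 were higher and 8 lower in the B clones, where 13.0% of all genes were called higher and 15.5% lower. Of the other family genes, 3 of 12 tested were higher and 1 lower. Bid, which links death receptors to BAX and BAK, was at 65.3 ± 34.4 CPM in the clones and 15.8 ± 4.41 CPM in the T-like cells (SD, n = 5, edgeR adjusted p = 0.00724). Bnip3, a mitophagy receptor induced by low oxygen, was at 63.5 ± 37.8 against 13.5 ± 4.53 CPM (edgeR adjusted p = 0.00883). The BH3-only gene Bmf was higher by 2.45 ± 0.75 on the log2 scale (edgeR adjusted p = 0.0466), from 329 and 25 UMIs. Bcl2l15 was near its floor in the clones (33 UMIs in all, 0.414 ± 0.244 CPM) and at 24.9 ± 16.2 CPM in the T-like cells (edgeR adjusted p = 0.000813).

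Of the caspases and their regulators, 1 of 11 was higher and 3 were lower. Htra2, a mitochondrial protease, rose from 13.8 ± 2.64 CPM in the T-like cells to 38.5 ± 18.4 CPM in the clones (edgeR adjusted p = 0.00737). Apaf1, the scaffold of the apoptosome, fell from 88.3 ± 42.1 to 24.0 ± 9.72 CPM (edgeR adjusted p = 0.00822), and Birc2, an inhibitor of apoptosis protein, from 127 ± 14.5 to 48.7 ± 20.6 CPM (adjusted p = 0.00615). Of the 9 death receptor genes, none was higher and 4 were lower: Fasl, the ligand of FAS made by T and NK cells (0.570 ± 0.597 against 80.0 ± 58.4 CPM), Tnfrsf1a (0.743 ± 0.634 against 9.95 ± 3.59 CPM), Ripk1 (22.9 ± 8.25 against 41.9 ± 10.5 CPM) and the initiator caspase gene Casp8 (21.2 ± 13.7 against 59.1 ± 14.3 CPM), with edgeR adjusted p of 0.000314, 0.00547, 0.0313 and 0.0476. The 5 NK cell markers summed to 83.8 to 351 CPM in the T-like cells and to 2.05 to 77.6 CPM in the B clones, and their part in the Fasl difference was not tested. Of the 8 partners and regulators of MCL1, BIM, BAX and BAK, 3 were higher and none lower. These were Fbxw7, a ubiquitin ligase subunit that marks MCL1 for degradation (227 ± 209 against 54.3 ± 23.2 CPM), Vdac2, a channel that binds BAK and BAX (233 ± 75.3 against 122 ± 44.1 CPM), and Mtch2, a receptor for truncated BID (85.5 ± 10.8 against 49.0 ± 10.3 CPM), with edgeR adjusted p of 0.00882, 0.0241 and 0.0152.

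The comparison with T-like cells sets 2 lineages against each other, so the B clones were also compared with the non-clonal B-like cells of mice 29, 31, 33 and 34. edgeR called 0 of the 10 genes, where 0.0866% of the 9237 genes tested were called (0.0325% higher, 0.0541% lower), and 4 of 10 had an unadjusted p under 0.05, as had 10.4% of all genes. DESeq2 also called 0 of the 10, and 112 of all genes. The median log2 fold change of the 10 genes was -0.60, against 0.13 over all genes tested. The reference held 24 to 41 cells a mouse, and the summed plasma cell markers stood at 600 to 15209 CPM in it against 82.1 to 1116 CPM in the clones. The part of plasma cells in these differences was not tested.

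Bcl2a1b was at 16.2, 332, 143 and 197 CPM in the non-clonal B-like cells of mice 29, 31, 33 and 34 (3, 46, 36 and 50 UMIs), above the clone of the same mouse in 4 of 4. In mice 29 and 33 the counting interval of the ratio included 1, and the groups overlapped. The log2 fold change was -3.13 ± 1.09 for Bcl2a1b and -1.85 ± 0.56 for Bcl2a1d (edgeR adjusted p = 0.368 and 0.317). Bcl2 was at 119, 65.0, 278 and 142 CPM, Mcl1 at 383, 996, 199 and 876 CPM, and neither moved the same way in all 4 mice (log2 fold changes -1.16 ± 0.51 and -0.48 ± 0.30, edgeR adjusted p = 0.476 and 0.609). Pmaip1 was the other gene above the clone in 4 of 4 mice (119 to 382 CPM, -0.57 ± 0.25, edgeR adjusted p = 0.475). Bcl2l1 rested on 8 UMIs, with 0 in mice 29 and 34, where 3 counts would correspond to 16.2 and 11.8 CPM, and was not comparable at this depth.

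In mouse 33 the 28 non-clonal B-like cells lay close to their clone in the genes that set that clone apart. Clone membership was an exact match of V gene, J gene and CDR3, so clone cells with altered sequences would count as non-clonal. The dominant heavy chain was in 272 of 427 cells with a called heavy chain there, and whether the 28 held such clone cells was not tested. They held 278 CPM of Bcl2 (95% interval 217 to 351) against 289 in the clone, 199 CPM of Mcl1 (147 to 262) against 178, and 143 CPM of Bcl2a1b (100.1 to 198) against 128. The T-like cells of mouse 33 held 116 CPM of Bcl2, the lowest value, close to the 123 CPM of mouse 27, which came from 149 UMIs.

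The 5 B clones formed an ordered series in Bcl2 and Mcl1. From the highest Bcl2 to the lowest they ranked mouse 33, 31, 27, 29 and 34, and from the lowest Mcl1 to the highest they ranked mouse 33, 31, 27, 29 and 34. In the clone of mouse 33 there were 163 Bcl2 UMIs for every 100 Mcl1 UMIs (95% interval 155 to 170), and in mouse 34 there were 3.12 (2.81 to 3.45), a 52.2-fold range over the B clones. In mice 31, 27 and 29 there were 26.0, 17.7 and 5.64 Bcl2 UMIs for every 100 of Mcl1. Counting intervals of neighbours did not overlap for either gene in this series. The T-like cells of the same 7 nodules held 51.3 to 186 Bcl2 UMIs for every 100 of Mcl1, a 3.63-fold range, and in the BCR mice they showed no such mirrored order.

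The mirrored order was noticed after the values were seen, with 5 clones, and is a description. It was the same with the clonotypes of the authors, with clone cells of the B-like class, without immunoglobulin and T cell receptor genes, with cells of at least 2000 UMIs and with likely doublets removed (5 of 5 alternatives), and in the cycling clone cells alone. In the non-cycling clone cells mice 29 and 34 changed places in Bcl2 (30.2 and 43.7 CPM). Tissue and age differed from mouse to mouse and cannot be told apart from the clone.

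**Figure D3:**
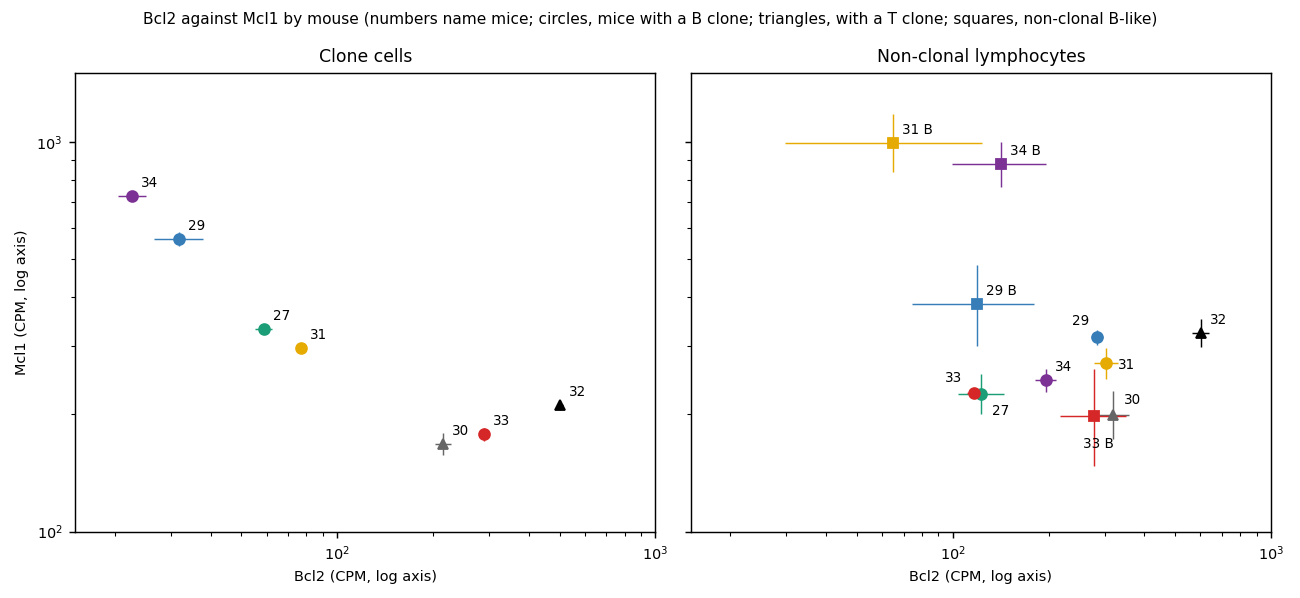
Bcl2 against Mcl1 (CPM, both axes log) in the clone cells (left) and non-clonal lymphocytes (right) of each mouse, with exact Poisson intervals. The 5 B clones (circles, left) run from mouse 34 with 22.6 CPM of Bcl2 and 726 of Mcl1 to mouse 33 with 289 and 178, whereas the T-like cells (circles and triangles, right) lie between 116 and 601 CPM of Bcl2 and 199 and 323 of Mcl1. The non-clonal B-like cells (squares, right) lie between 65.0 and 278 CPM of Bcl2 and 199 and 996 of Mcl1.

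The other genes did not follow this order. Bcl2a1b and Bcl2a1d were highest by far in mouse 33, with a 68.6-fold and a 21.7-fold range over the B clones. Bcl2l11 was highest in mouse 29 (51.0 CPM) and lowest in mouse 31 (10.4 CPM), a 4.90-fold range, and Bax was lowest in mouse 29 (68.2 CPM) while the other 4 clones held 153 to 216 CPM. The clone of mouse 29 also held 530 CPM of the summed neutrophil markers, against 0.804 to 3.91 CPM in the other 4 B clones, and the neutrophil-like cells of mouse 29 held 657 CPM of Bcl2l11, 1569 CPM of Mcl1 and 24.2 CPM of Bax. With the 295 of 323 clone cells in B-like clusters, the neutrophil markers of this clone were at 79.6 CPM, Bcl2l11 at 45.8, Mcl1 at 561 and Bax at 68.8 CPM, and it kept its place among the 5 clones in these 3 genes. Bcl2l1 and Bak1 varied least, by 2.17-fold and 2.26-fold.

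In the 2 T clones, 8 of the 10 genes were fitted below their level in the non-clonal T cells of the same nodule, and no gene passed the test. The median log2 fold change of the 10 genes was -0.50, against 0.03 over all genes tested. edgeR called 0 of 10 genes, where 0.215% of the 11639 genes tested were called (0.00859% higher, 0.206% lower), and 3 had an unadjusted p under 0.05, as had 9.54% of all genes. DESeq2 called 0 of the 10, and 220 of all genes. Bcl2 was at 214 and 503 CPM in the clones of mice 30 and 32 and at 319.5 and 601 CPM in the other T cells, lower in both (log2 fold change -0.56 ± 0.22, edgeR adjusted p = 0.517). Bcl2l1 was at 19.5 and 19.9 CPM in the clones and at 34.6 and 33.7 CPM in the reference (-0.94 ± 0.29, edgeR adjusted p = 0.379). Mcl1 (168 and 211 against 199 and 323 CPM, -0.58 ± 0.24) and Bcl2a1b (403 and 146 against 472 and 266 CPM, -0.69 ± 0.27) were also lower in both mice (edgeR adjusted p = 0.557 and 0.505). With 2 mice and the mouse as a block, little was left to estimate the error, and none of these differences passed over all genes.

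Bcl2l11 (chr2:128126038-128162547), which is required for the deletion of autoreactive and spent T cells, moved in opposite directions in the 2 T nodules. In mouse 32 it was at 14.2 CPM in the clone and at 92.1 CPM in the other T cells, and in mouse 30 at 9.40 CPM in the clone and at 3.05 CPM in the other T cells, the latter from 3 UMIs (95% interval 0.630 to 8.92). Bbc3 (14.9 and 23.2 against 14.2 and 12.9 CPM) and Bax (71.0 and 105 against 66.1 and 81.5 CPM) were above the reference in both mice without passing (edgeR adjusted p = 0.865 and 0.953). Pmaip1 (259 and 204 against 350.1 and 189.9 CPM), Bcl2a1d (230.3 and 72.4 against 214 and 101.1 CPM) and Bak1 (8.48 and 20.8 against 16.3 and 17.4 CPM) differed in direction between the mice.

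The T clones carried other signals beside these values. The 5 neutrophil markers summed to 816 and 1843 CPM across the 2 T clones and to 141 and 190 CPM across their references, with none at 0 in the clones. The 5 mast cell or basophil markers summed to 58.6 and 73.6 CPM in the clones and reached at most 21.4 CPM in the references. The 6 erythroid markers summed to 906 CPM in the clone of mouse 32 and to 62.9 CPM in its reference, with none at 0 in either, and to 0.922 and 2.04 CPM in mouse 30. When clone cells outside the T-like clusters were left out, 2091 of 2107 and 4545 of 4868 clone cells remained. edgeR then called 0 of all 11453 genes tested, the family genes included. The neutrophil markers were then at 162 and 161 CPM in the T clones, and the erythroid markers at 72.4 CPM in that of mouse 32. Bcl2 was then at 621 CPM in the clone of mouse 32, above the 601 CPM of its reference, and at 218 CPM in that of mouse 30, still below it. Of the 39 tested genes of the 4 further lists, 1 passed: Fasl was at 3.82 ± 3.84 CPM in the clones and 73.8 ± 64.1 CPM in the other T cells (SD, n = 2, edgeR adjusted p = 0.0384). The NK cell markers summed to 3.54 and 33.7 CPM in the clones and to 151 and 187 CPM in the other T cells, and their part in this difference was not tested.

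B clones and T clones were next compared directly, 5 mice against 2. edgeR called 0 of 10 genes, where 6.74% of the 15191 genes tested were called (2.05% higher, 4.69% lower), with 2 genes at an unadjusted p under 0.05 against 26.4% of all genes. DESeq2 called 0 of the 8 family genes to which it gave an adjusted p, and 3035 of all genes. Mcl1 was at 178 to 726 CPM in the B clones and at 168 and 211 CPM in the T clones (log2 fold change 1.38 ± 0.50, edgeR adjusted p = 0.133), and Bcl2l11 at 10.4 to 51.0 against 9.40 and 14.2 CPM (1.51 ± 0.59, adjusted p = 0.158). Bcl2 pointed the other way, at 22.6 to 289 CPM in the B clones against 214 and 503 CPM (-1.51 ± 0.99, edgeR adjusted p = 0.367), with the clone of mouse 33 between the T clones. Bcl2a1b was below both T clones (146 and 403 CPM) in every B clone, and the log2 fold change of -2.60 ± 1.38 did not pass (edgeR adjusted p = 0.273). Without mouse 33, Bcl2a1b (-4.81, edgeR adjusted p = 0.0255) and Bcl2a1d (-3.78, adjusted p = 0.0335) were called, as were 758 of all 15000 genes. The adjusted p of the 2 copies over the alternatives ran from 0.0255 to 0.695 and from 0.0335 to 0.775.

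Whether the clone differed from the T-like cells of its nodule by another amount in B than in T nodules was tested as an interaction in the same 7 mice, which shares its samples with the comparisons above. edgeR called 0 of 10 genes, where 2.01% of the 14508 genes tested were called (0.352% higher, 1.66% lower), and 3 had an unadjusted p under 0.05, as had 15.6% of all genes. The largest differences were those of Bcl2a1b (-4.12 ± 1.46, edgeR adjusted p = 0.218) and Bcl2a1d (-3.35 ± 1.16, adjusted p = 0.210). Both were called with DESeq2 (adjusted p = 0.0205 and 0.0324), as were 1046 of all 14508 genes. Without mouse 33 both were called as well (edgeR adjusted p = 0.0451 and 0.0278), as were 314 of 13626 genes. Over the alternatives their adjusted p reached 0.683 and 0.684. Mcl1 differed by 1.18 ± 0.50 (edgeR adjusted p = 0.302). In the 4 further lists 1 gene passed in each of these fits, Bcl2l15, lower in the B clones than in the T clones (-5.40 ± 0.66, edgeR adjusted p = 0.00871) and with the lower clone effect in the B nodules (-4.60 ± 0.85, adjusted p = 0.0355).

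Within the clones, cycling cells had less Mcl1, Pmaip1 and Bbc3 than non-cycling cells. Cells with at least 2 UMIs of 10 proliferation genes were taken as cycling (5.79% and 19.6% of the T clone cells, 35.3% to 83.0% of the B clone cells) and cells with none as non-cycling, and the cycling cells were deeper (median 6283 to 16131 against 1903 to 10249 UMIs). edgeR called 3 of 10 genes, all lower, where 23.2% of the 10402 genes tested were called, 11.5% lower and 11.7% higher. The same 3 had an unadjusted p under 0.05, as had 36.8% of all genes. The median log2 fold change of the 10 genes was -0.30, against -0.06 over all genes tested.

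Mcl1 was lower in the cycling cells of 7 of 7 clones. The B clones of mice 27, 29, 31, 33 and 34 held 322, 465, 281, 172 and 697 CPM in cycling cells and 419, 663, 368, 193 and 831 CPM in non-cycling cells, and the T clones of mice 30 and 32 held 144 and 177 against 174 and 242 CPM. The differences between clones were far larger than those within them, so the ranges overlapped while each pair moved the same way (log2 fold change -0.38 ± 0.07, edgeR adjusted p = 0.00227). Pmaip1 was also lower in 7 of 7, with 131, 68.9, 223, 96.4 and 107 CPM in the cycling and 136, 102, 302, 120.2 and 141 CPM in the non-cycling cells of the B clones, and 156 and 140.2 against 279 and 256 CPM in the T clones (-0.54 ± 0.10, edgeR adjusted p = 0.00301). Bbc3 was lower in 6 of 7, at 4.08 to 19.3 CPM against 8.52 to 27.9 CPM (-0.48 ± 0.14, edgeR adjusted p = 0.0286).

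The calls of Mcl1 and Pmaip1 held in every alternative that kept the mouse as a block, and that of Bbc3 was lost in 9 of 17 alternatives (edgeR adjusted p 0.0218 to 0.999 over all of them). Without the block, where differences between clones enter the error, none of the 3 passed (edgeR adjusted p = 0.999, 0.925 and 0.999 for Mcl1, Pmaip1 and Bbc3). Bcl2l11 was lower in the cycling cells of 6 of 7 clones and higher in mouse 32 (20.3 against 9.69 CPM), and did not pass (-0.47 ± 0.25, edgeR adjusted p = 0.183). It was called when mouse 32 was left out (-0.76, edgeR adjusted p = 0.00186) and when clone cells outside the B-like or T-like clusters were (-0.68, edgeR adjusted p = 0.00600), and its adjusted p ranged from 0.00186 to 0.999 over the alternatives. Bax hardly moved (log2 fold change -0.09 ± 0.08, edgeR adjusted p = 0.479), and Bcl2, Bcl2l1, Bcl2a1b, Bcl2a1d and Bak1 had log2 fold changes from -0.31 to 0.12 with adjusted p of at least 0.240.

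**Figure D4:**
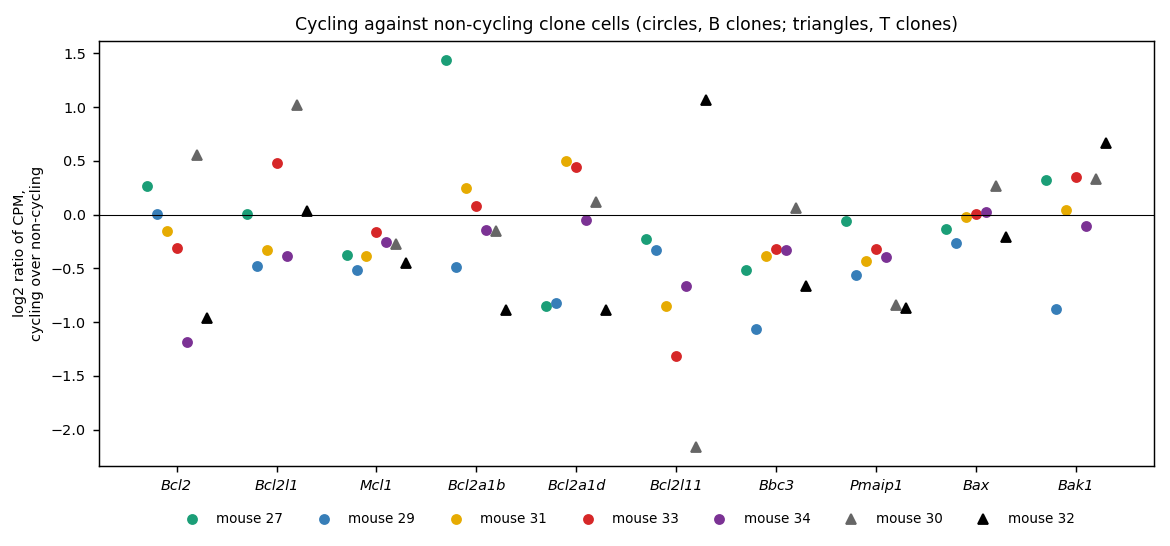
Log2 ratio of CPM in cycling over non-cycling clone cells for each gene and mouse (circles, B clones; triangles, T clones; the line marks equal levels). All 7 points lie below the line for Mcl1 and Pmaip1 and 6 of 7 for Bbc3 and Bcl2l11, while the points of Bax lie close to it.

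Of the further lists, 35 genes were tested between cycling and non-cycling cells, of which 5 were higher and 3 lower, where 23.2% of all genes were called, so the share of the lists was near that of all genes. Cycs, the cytochrome c gene, was at 292 ± 91.0 CPM in cycling and 215 ± 90.6 CPM in non-cycling cells (SD, n = 7, edgeR adjusted p = 0.00135, higher in 7 of 7), and Htra2 (adjusted p = 0.0341), the family gene Bcl2l12 (0.0432) and Dynll2, a dynein light chain that binds BMF (0.0311), were higher by 0.39 to 0.52 on the log2 scale. Birc3, an NF-κB target that inhibits apoptosis, was at 116 ± 54.4 against 158 ± 60.2 CPM (edgeR adjusted p = 0.00161), Bnip3l at 121 ± 30.9 against 148 ± 31.3 CPM (adjusted p = 0.00581) and Bmf at 3.27 ± 3.34 against 6.03 ± 6.45 CPM (adjusted p = 0.00761), each lower in 7 of 7 clones. None of the 7 death receptor genes tested passed.

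The same genes were set beside the other cells of the nodules to place the lymphocyte levels, as means over mice with at least 50 cells of a class (20 for the non-clonal B-like cells). Neutrophil-like cells held the most Mcl1 (1079 ± 528 CPM, SD, n = 3) and macrophage or monocyte-like cells came next (703 ± 343 CPM, n = 7), ahead of the non-clonal B-like cells (613 ± 383, n = 4), the B clones (419 ± 222, n = 5), the T-like cells (251 ± 44.6, n = 7) and the T clones (189 ± 30.3, n = 2). Fibroblast-like (474 ± 246, n = 2) and endothelial-like cells (398 ± 95.3, n = 3) stood on either side of the B clones. The ranges of neighbouring classes overlapped down to the T clones. Erythroid-like cells held the least (82.9 ± 27.8 CPM, n = 2), below the range of every other class. Bcl2 ran from the T clones (359 ± 204 CPM, n = 2) and T-like cells (272 ± 171, n = 7) down to neutrophil-like (25.5 ± 8.32) and erythroid-like cells (25.1 ± 9.19). The B clones stood in between at 95.8 ± 110.0 CPM. The T clone mean covers only mice 30 and 32, where the T-like class held more Bcl2 than the clone (264 and 620 against 214 and 503 CPM). In the TCR mice the T-like class here held 7223 (mouse 30) and 3370 (mouse 32) cells, of which only 394 and 503 had a called non-clonal receptor. The others had no receptor called. T clusters almost wholly from mouse 30 (97.4% and 97.9%) or mouse 32 (99.6%) had the V gene of the clone, Trbv1 or Trbv26, among their top genes. How many cells of this class belonged to the clones was not tested, so the 2 classes are not separate in those mice.

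Bcl2a1b was shared by T-like cells (328 ± 86.3 CPM) and macrophage or monocyte-like cells (315 ± 177 CPM), with neutrophil-like cells at 79.8 ± 19.1 CPM and the B clones at 32.6 ± 53.8 CPM. Its copy Bcl2a1a differed, at 107 ± 81.3 CPM in macrophage or monocyte-like cells and 5.85 ± 2.70 CPM in T-like cells. Bcl2l11 was highest in neutrophil-like cells (66.3 to 657 CPM) and macrophage or monocyte-like cells (58.8 to 486 CPM), above the range of the B clones. Bcl2l1 was highest in neutrophil-like (80.7 ± 71.5 CPM), erythroid-like (72.3 ± 65.4) and endothelial-like cells (55.2 ± 7.10), and the B clones (13.3 ± 3.53) and non-clonal B-like cells (11.2 ± 14.0) came last. Bax was highest in the non-clonal B-like cells (167 ± 64.0) and B clones (165 ± 59.8) and lowest in neutrophil-like cells (33.8 ± 11.5), while Pmaip1 stood at 134 to 277 CPM on average in all lymphoid and myeloid classes and at 17.2 to 51.0 CPM in fibroblast-like, erythroid-like and endothelial-like cells. Bbc3 and Bak1 were low everywhere (means of 4.64 to 28.1 and of 9.86 to 23.2 CPM), and their ranges overlapped between all neighbouring classes.

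**Figure D5:**
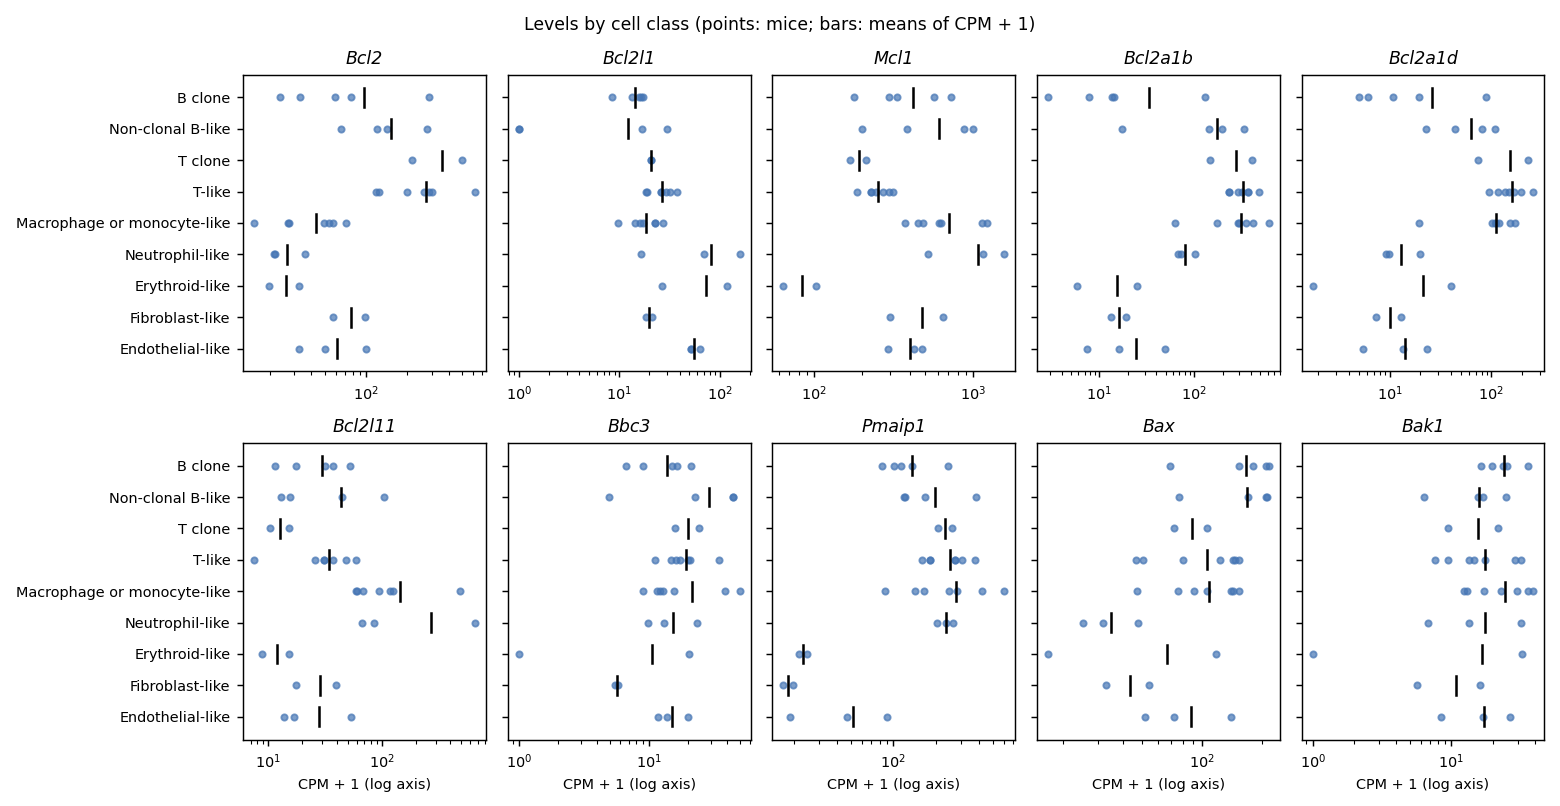
CPM + 1 (log axis) of the 10 genes in 9 cell classes, with a point for each mouse and a bar at the mean. Mcl1 and Bcl2l11 were highest on average in neutrophil-like cells, Bcl2 in the T clones and Bcl2a1b in the T-like cells. The T clones come from mice 30 and 32 only, and in both mice the T-like cells held more Bcl2 than the clone.

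Over the 14 sums of clone and non-clonal T-like cells, the genes whose log2 levels were among the most like those of a member were taken from 8474 genes with a mean of at least 10 CPM. For Bcl2a1b they were Galnt6, Fam129a and Bcl2a1d (Pearson r 0.981, 0.980 and 0.979). For Bcl2 they were Plec, Zfp949 and Myo9b (r 0.923, 0.895 and 0.884), for Mcl1 Slmap and Insig1 (0.891 and 0.869), and for Bcl2l11 Zkscan14, Tatdn2 and 1700017B05Rik (0.784, 0.782 and 0.768). These are the highest of 8474 values over sums that share mice and differ in lineage and depth, and are given as a description.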

How the data were processed

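Raw UMI counts were used as deposited by the authors: unnormalized counts per gene and cell in called cells of 7 RNA libraries, and UMIs per V(D)J contig with the clonotypes the authors assigned. Per the labels the build was GRCm38 (mm10); aligner and annotation version were not given in the sources used here. The labels name a 5′ kit for the V(D)J libraries and the study's methods a 3′ kit for RNA, so which transcript end was counted was not settled. Dead cells had been removed before library preparation.

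Cells with at least 201 UMIs, 101 genes and at most 10% mitochondrial UMIs were kept. Clone membership required the most frequent heavy or beta chain of a library, or else that chain's most frequent light or alpha partner. Cells were clustered with scanpy 1.11.5 and leidenalg 0.10.2 (2000 variable genes without family and apoptosis genes, 30 components, 15 neighbors, resolution 1, 33 clusters). A cluster was called X-like when at least 3 markers of X were in 10% of its cells at 1.5 times the median cluster, and 6 clusters with 8568 cells stayed unnamed. That rule was loosened after marker counts, not family values, were seen. The names were rebuilt from the counts. No doublets were removed in the values reported, and leaving out cells in which T and B markers each reached 2 UMIs was an alternative.

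UMIs were summed per mouse and group and fitted over all genes with edgeR 4.0.16 (R 4.3.3; filterByExpr, TMM, quasi-likelihood test, mouse as block where both groups came from a mouse, Benjamini-Hochberg adjustment, calls at 0.05). Sums of non-clonal B-like cells needed 20 cells. The block rests on the labels, as both groups came from 1 nodule, and deviations of the paired sums correlated at 0.14 to 0.93. Intervals of levels, shares and UMI ratios are 95% exact Poisson or Clopper-Pearson intervals, and the floor for 0 is 3 counts. Standard errors of edgeR fold changes were derived as the absolute log2 fold change over the square root of the F statistic of its test. Alternatives were DESeq2 1.42.0, no filter, RLE scaling, no block, each mouse left out, other clone, reference and cell definitions and, added after the data were seen, the summed A1 copies. The fits were also run on simulated counts with the same dispersion for every gene and no differences between mice. Such counts cannot show how the fits behave with the spread between mice seen here. The 10 genes were named in every comparison, up to 5 genes per further list were named by adjusted p (some genes that the rules for naming reached are counted but not reported here by name), and the members and lists were chosen with earlier results of these data known. Promoter sequences came from RefSeq (GRCm38.p6), aligned with biopython 1.88.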

Additional observations from a re-analysis of the deposited data

Results flagged for a closer look

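The clone of mouse 33 stood apart from the other 4 B clones in 3 of the 10 genes, each time as the highest. It held 289 CPM of Bcl2, where the others held 22.6 to 77.1, and 128 CPM of Bcl2a1b, where the others held 1.87 to 13.1. For Bcl2a1d it held 87.7 CPM and the others 4.04 to 18.3. The gap to the nearest clone, divided by the range of the 5, was 0.795, 0.911 and 0.83 for these genes on untransformed CPM, above Dixon's 95% critical value of 0.71. Such gaps were looked for in 30 groups of values, of which chance flags about 1 in 20, or 1.5 here, if values are normally distributed. CPM values need not be, and gaps on a log scale were not tested. Bcl2a1b and Bcl2a1d are near-identical copies and not independent of each other. No other group of 4 or 5 mice was marked, and no family gene had a clone effect that differed between B and T nodules at an edgeR adjusted p under 0.05.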

How the results depend on the processing

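Each of the 6 counts of called family genes and each gene's fold change were recomputed under every alternative that could be fitted. Of 88 recomputed counts 83 kept within 1.5 times of the reported count or stayed at 0. Of 890 recomputed gene values with an adjusted p, 842 kept their direction and their side of the threshold, and 22 more had no adjusted p (20 with 1 T nodule left and 2 with DESeq2). DESeq2 called 6 family genes in place of 3 in the B clones against T-like cells, where it called 4782 of all 12457 genes in place of 3547. For the interaction it called 2 family genes in place of 0, where it called 1046 of all 14508 genes in place of 292. With the mouse as a block removed, the pairing was ignored. Between cycling and non-cycling cells 0 in place of 3 family genes were then called, and 276 in place of 2417 of all genes. The block changed no other count of family genes (3, 0, 0 and 0 without it), although the fold change of Bcl2a1b in the B clones against T-like cells moved to -3.18. Leaving out each mouse gave 2 to 3 called family genes for the B clones against T-like cells and 0 to 0 against B-like cells. It gave 0 to 2 for B against T clones and for the interaction (2 without mouse 33), and 2 to 3 for cycling cells. Over all genes the same fits called, in that order, 2338 to 3059, 6 to 19, 179 to 1472, 0 to 332 and 1697 to 2295. For the T clones, leaving out 1 of 2 mice left values with no test, in which Pmaip1 and Bak1 (0.10 and 0.24 in mouse 32) and Bcl2a1d and Bcl2l11 (0.11 and 1.36 in mouse 30) changed sign.

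Values that reversed were called in none of the settings, lay near 0 except for Bcl2l11 in the interaction, and the cause was not tested. Against B-like cells these were Bax (-0.28 to 0.0338 over the mice left out, positive at 0.0338 and 0.00424 without mouse 29 or 34, 0.0529 with the authors' clonotypes, 0.0153 with the reference by marker UMIs), Bcl2l1 (-0.23 to 1.38 over the mice left out, negative without mouse 34, and -0.24 with the authors' clonotypes) and Bcl2l11 (0.0619 with those clonotypes). For B against T clones it was Bbc3 (-0.62 to 0.12, positive without mouse 32). For the interaction they were Bcl2l1 (-0.23 to 0.18, positive at 0.0682, 0.0905, 0.18 and 0.0645 without mouse 27, 29, 31 or 32, and 0.0629 with the authors' clonotypes) and Bcl2l11 (-1.79 to 2.46, negative without mouse 32). For cycling cells they were Bcl2l1 (-0.12 to 0.13, negative at -0.12 and -0.0566 without mouse 30 or 33, -0.00124 with RLE scaling, -0.031 with cells of at least 2000 UMIs) and Bcl2a1d (-0.35 to 0.0984, positive without mouse 32, and 0.0741 with clone cells of their own class).

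Over all genes, calls ranged from 2338 to 4782 (3547 in the reported fit) for the B clones against T-like cells, 0 to 112 (8) against B-like cells, 0 to 525 (25) for the T clones, 179 to 3035 (1024) for B against T clones, 0 to 1046 (292) for the interaction and 276 to 2597 (2417) for cycling cells. Low counts limit Bcl2l1, Bak1 and Bbc3 in the non-clonal B-like cells, and 2 mice limit every statement on T clones.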
